A study of Mus musculus with 40 samples.

Results

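The 8 genes described here are Cdh1, Cdh2, Cdh3, Cdh5, Cdh6, Cdh11, Cdh13, and Cdh17, taken by symbol from the 55487 genes of a count table of mouse liver RNA. Cdh6 was selected on measured values, its log2 CPM (CPM, counts scaled to a fixed library total) in knockout against WT livers at each day, where it was among the most clearly raised genes. The difference of Cdh6 between genotypes is therefore given as a description, without a test. How the other 7 genes were picked is not recorded, and since results of the same contrast were known, the tests on them are no independent support for the choice. Livers came from female hepatocyte-specific Nampt knockout mice (HNKO, Nampt fl/fl with 1 Alb-Cre allele, labelled as strain C57BL/6JBomTac) and from WT littermates, which carry the floxed Nampt alleles without Cre. Mice were 9 weeks old when they were put on a purified control diet (PD), which both genotypes were fed for 3, 6, 12, or 21 days. The labels give these days as the age of the mice, and the study's methods as days of feeding. The albumin promoter drives Cre in hepatocytes, so other liver cells keep Nampt. RNA of whole liver was sequenced in 40 libraries, and the 38 libraries that passed the study's quality control were used: 5 HNKO and 5 WT at day 3, 5 and 4 at day 6, 6 and 5 at day 12, and 3 and 5 at day 21.

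Cadherins are calcium-dependent adhesion proteins of the cell surface. The extracellular repeats of a cadherin bind cadherins of the neighbouring cell, and in classical cadherins the cytoplasmic tail binds beta-catenin and p120-catenin and so connects the junction to actin through alpha-catenin. Cdh1 (E-cadherin), Cdh2 (N-cadherin), and Cdh3 (P-cadherin) are classical cadherins of type I, and Cdh5 (VE-cadherin), Cdh6 (K-cadherin), and Cdh11 (OB-cadherin) are of type II. The label under which the 8 genes were grouped, classical cadherins, holds for these 6. Cdh13 (T-cadherin) is held in the membrane by a lipid anchor and has no cytoplasmic tail, and Cdh17 (LI-cadherin) has more extracellular repeats than a classical cadherin and a short tail. Hepatocytes are known to carry both E-cadherin and N-cadherin, bile duct cells E-cadherin, endothelial cells VE-cadherin, and mesenchymal cells OB-cadherin.

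Total counts of the 38 libraries ranged from 16151037 to 64181492, with a median of 26466478.5. Nampt, the targeted gene, was lower in HNKO than in WT, with log2 fold changes of −0.93, −0.90, −0.82, and −0.69 at the 4 days in order (adjusted p = 0.161 at day 21, edgeR). Its HNKO libraries lay below every WT library of their day in 5 of 5, 4 of 5, 6 of 6, and 3 of 3 cases. The mean log2 CPM of 9 hepatocyte markers was 11.2 to 12.1 in HNKO and 11.8 to 12.3 in WT, so that the tissue label holds in both.

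Of the 8 genes, 5 lie on chromosome 8 (GRCm38). Cdh3 (8, 106510891 to 106557297, plus strand) and Cdh1 (8, 106603351 to 106670246, plus strand) are neighbours, with 46053 bases between them. Cdh5, Cdh11, and Cdh13 also lie there, whereas Cdh2 is on chromosome 18, Cdh17 on chromosome 4, and Cdh6 on chromosome 15 (13028701 to 13173675, minus strand). No exon of the 8 genes overlaps an exon of another annotated gene. Stretches of 51 bases shared with transcripts of other genes made up 1.95% of Cdh11, 0.196% of Cdh13, and 0.0892% of Cdh6, and there were 0 in the other genes. Reads of these genes are thus rarely open to more than 1 gene.

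The promoter of Cdh6 is shown because Cdh6 was the gene raised at all days, and it was the gene of the 8 that the RefSeq promoter table (GRCm38.p6) matched. The 250 bases before its start, chr15:13173676-13173925 on the minus strand, hold 51.2% G and C, against a median of 52.4% over 32851 promoters. They are printed 5′ to 3′, and the capitals mark the matches to the GC box.

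Cdh6: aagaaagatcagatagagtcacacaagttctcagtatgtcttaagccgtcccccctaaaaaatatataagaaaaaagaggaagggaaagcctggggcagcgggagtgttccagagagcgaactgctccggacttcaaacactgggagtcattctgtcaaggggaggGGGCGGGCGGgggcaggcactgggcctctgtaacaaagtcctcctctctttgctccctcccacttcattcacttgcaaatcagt

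The GC box (GGGCGG, both strands) was found at 84 and 80 bases before the start, as 2 matches that overlap each other, and 32.7% of promoters of this length hold it. No match was found for a TATA box (TATAAA, in 12.4% of promoters), a CCAAT box (CCAAT, 33.8%), a Snail-type E-box (CAGGTG, 17.2%), a TEAD motif (GGAATG, 12.6%), an AP-1 site (TGACTCA, 4.46%), or an HNF1 half-site (GTTAAT, 6.43%), on either strand.

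The 8 cadherins differed widely in level. FPKM is here the level per length of all annotated exons of a gene, whichever transcripts the liver makes. In FPKM, Cdh2, Cdh1, and Cdh5 stood far above the rest and together made up 96.8% to 98.4% of the summed cadherin FPKM in WT livers and 96.0% to 97.6% in HNKO livers. In WT the median was 16.1 FPKM for Cdh2 (range 12.3 to 21.9, n = 19), 12.3 for Cdh1 (7.25 to 19.95), and 12.3 for Cdh5 (9.31 to 16.8). These 3 ranges overlap each other. Cdh13 followed at 0.594 FPKM (0.413 to 0.818), below every library of the 3 genes above it. Cdh3 at 0.145 FPKM (0.0604 to 0.478) and Cdh6 at 0.0585 (0.0327 to 0.146) overlapped each other, as did Cdh11 at 0.0356 (0.0171 to 0.463) with both. Cdh17 was lowest, at 0.00340 FPKM, with 21 counts in all 19 WT libraries and 0 counts in 9 of them.

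In HNKO livers the order of the medians was different. Cdh1 led with 19.9 FPKM (range 12.2 to 26.9, n = 19), above Cdh2 at 15.3 (12.0 to 20.1) and Cdh5 at 14.03 (10.1 to 16.96). Within a library, Cdh1 exceeded Cdh2 in FPKM in 14 of 19 HNKO livers and in 1 of 19 WT livers. The order of these genes depends on the exon lengths, 4574 bases for Cdh1 and 8066 for Cdh2. In counts, the mean log2 ratio of Cdh1 to Cdh2 was negative in every group, as given below. The median share of Cdh1 in the summed cadherin FPKM was 38.8% in HNKO and 30.1% in WT, and that of Cdh2 was 32.4% and 37.5%. Below Cdh13, at 0.666 FPKM, the HNKO medians of Cdh3 and Cdh6 were both 0.353, that of Cdh11 was 0.0761, and that of Cdh17 was 0.0543. The share of Cdh6 in the summed FPKM was small in both genotypes, with medians of 0.805% in HNKO and 0.145% in WT.

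**Figure D1:**
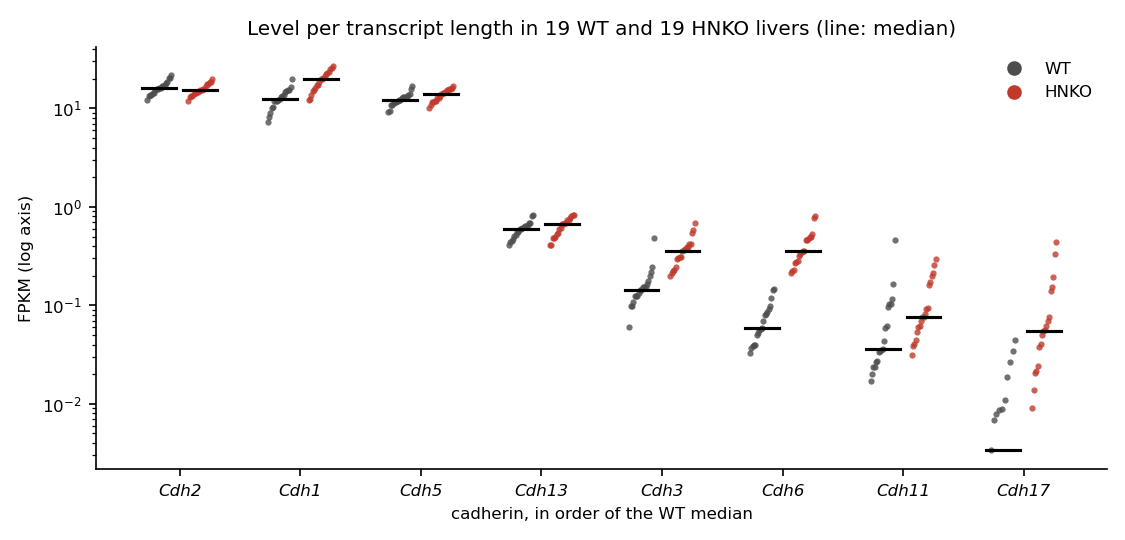
FPKM (log axis) of the 8 cadherins, in order of the WT median, with a point per liver and a line at the median of 19 WT (grey) and 19 HNKO (red) livers. Cdh2, Cdh1, and Cdh5 lie far above the other genes, and 9 WT libraries and 1 HNKO library with 0 counts of Cdh17 cannot be drawn on the log axis.

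Cdh6, a cadherin best known from the developing kidney, was higher in every HNKO liver than in every WT liver of the same day. At day 3 the HNKO livers had 6.91, 4.17, 4.18, 2.49, and 7.34 CPM, and the WT livers 0.714, 1.32, 0.476, 0.528, and 0.360 CPM. At day 6 the HNKO values were 3.18, 3.00, 4.24, 3.19, and 2.45 CPM, against 0.347, 0.359, 0.780, and 0.295 CPM in WT. The lowest HNKO value of these days was thus 2.45 and the highest WT value 1.32 CPM.

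At day 12, HNKO livers spanned 1.90 to 4.79 CPM (n = 6), and the WT livers had 0.625, 0.450, 0.335, 0.823, and 0.517 CPM. At day 21 the HNKO livers had 4.46, 2.52, and 3.11 CPM, and the WT livers 0.513, 0.740, 0.882, 1.06, and 1.30 CPM. The highest WT liver and the lowest HNKO liver of a day were 0.823 and 1.90 CPM at day 12 and 1.30 and 2.52 CPM at day 21. The counts behind these values were low, 7 to 58 in a WT library and 40 to 190 in an HNKO library.

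The fitted log2 fold changes of Cdh6 were 2.88 ± 0.35 (SE), 2.85 ± 0.40, 2.43 ± 0.34, and 1.91 ± 0.36 at days 3, 6, 12, and 21, which are 7.34-, 7.23-, 5.38-, and 3.75-fold. With any library of the day left out, they stayed between 1.67 and 3.26. Because these differences chose the gene, no p-value is given for them or for their decline with time. Within each of the 2 label series (libraries 1 to 21 and 22 to 41, as the library numbers run through the days), the difference was 1.43 to 3.06 on the log2 CPM scale in 7 of 7 comparisons. The change over days within a genotype did not pass the test (edgeR adjusted p = 0.303 in WT and 0.265 in HNKO). It rests on the same values as the choice, which took a gene raised at all days, so this test is not independent of the choice.

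**Figure D2:**
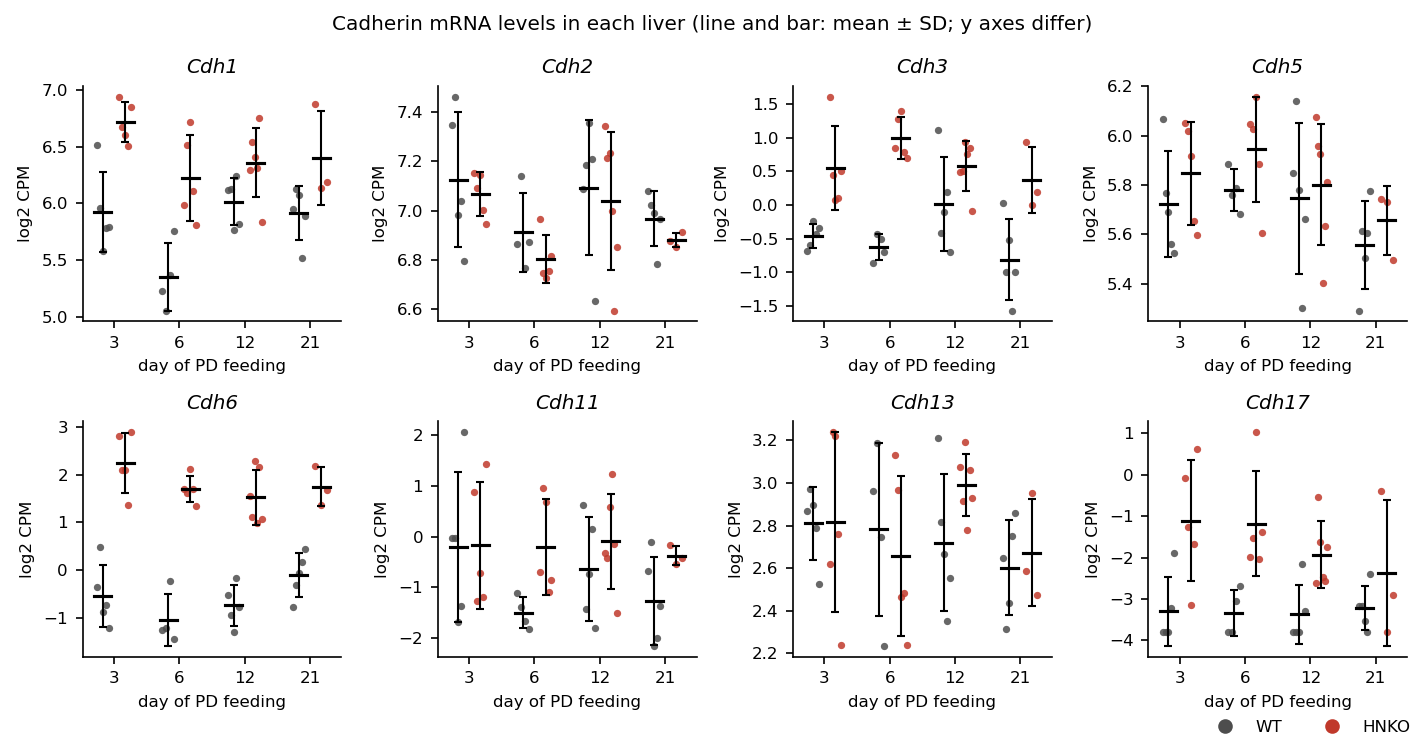
Log2 CPM of each cadherin in each liver against the day of PD feeding, WT in grey and HNKO in red, with the mean and SD of each group; the y axes differ between genes. Cdh6 shows no overlap between genotypes at any day, whereas Cdh2, Cdh5, and Cdh13 overlap at each day.

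Cdh1 and Cdh3, both classical cadherins of epithelia, rose in HNKO livers at days 3 and 6. Cdh17 passed the filter on low counts only through the HNKO libraries and could therefore be tested only because it was higher there, so its difference between genotypes is described without a p-value. Of the 6 genes other than Cdh6 and Cdh17, 2 were called higher in HNKO at both day 3 and day 6, the same genes Cdh1 and Cdh3. At the later days 0 were called higher, and at no day was a gene called lower, with edgeR's quasi-likelihood test at an adjusted p under 0.05 over 20297 genes. Among all tested genes, 2.95%, 8.42%, 4.56%, and 2.21% were called higher in HNKO at the 4 days in order, and 1.71%, 4.37%, 3.27%, and 0.916% lower. At an unadjusted p under 0.05, 1 of the 6 passed at day 12 (Cdh1) and 2 at day 21 (Cdh1 and Cdh3), as did 24.5% and 18% of all tested genes. Groups did not overlap, with HNKO higher, for 1 of the 6 genes at day 3 (Cdh3), 3 at day 6 (Cdh1, Cdh3, and Cdh11), 0 at day 12, and 1 at day 21 (Cdh1), and the same was true of 2.31%, 8.08%, 2.65%, and 7.25% of all tested genes.

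Cdh1, the cadherin of epithelial junctions, had 123, 102, 97.2, 91.0, and 116 CPM in HNKO livers at day 3 and 91.3, 62.2, 47.8, 54.9, and 55.5 CPM in WT livers. The lowest HNKO value lay just under the highest WT value, and 4 of 5 HNKO livers were above all WT livers. At day 6 the HNKO livers had 63.2, 91.3, 105, 69.0, and 56.0 CPM and the WT livers 37.5, 33.2, 41.2, and 53.9 CPM, without overlap. The log2 fold change was 0.76 ± 0.18 (SE) at day 3 (adjusted p = 0.0145) and 0.89 ± 0.20 at day 6 (adjusted p = 0.00269, edgeR).

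At day 12, Cdh1 spanned 57.2 to 108 CPM in HNKO (n = 6) and had 69.3, 70.0, 54.4, 75.6, and 56.4 CPM in WT. At day 21 it had 118, 70.2, and 73.0 CPM in HNKO and 61.8, 69.6, 67.3, 45.8, and 59.3 CPM in WT. The groups overlapped at day 12 but not at day 21, where 70.2 and 69.6 CPM almost touched. The log2 fold changes were 0.36 ± 0.17 (adjusted p = 0.201) and 0.52 ± 0.21 (adjusted p = 0.165), and neither passed the test. Without HNKO library 37 the value at day 21 was 0.25, and without HNKO library 2 it was 0.70 at day 3 with an adjusted p of 0.0520 (edgeR), so that without this library none of the 6 genes was called at day 3.

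Cdh3, known from basal and placental epithelia, was rare, with 6 to 57 counts in a WT library and 21 to 110 in an HNKO library. At day 3 it had 2.98, 1.29, 0.983, 1.002, and 1.35 CPM in HNKO and 0.551, 0.591, 0.773, 0.669, and 0.721 CPM in WT, and at day 6 it had 1.73, 2.35, 2.56, 1.65, and 1.55 CPM in HNKO and 0.477, 0.667, 0.634, and 0.548 CPM in WT. All HNKO livers lay above all WT livers at both days. The log2 fold changes were 1.21 ± 0.33 at day 3 (adjusted p = 0.0309) and 1.77 ± 0.36 at day 6 (adjusted p = 0.00148, edgeR). Without HNKO library 2, which had 2.98 CPM, the value at day 3 was 0.81 with an adjusted p of 0.185. The call of day 3 was also lost without WT library 1, 5, or 25 or HNKO library 23 (log2 fold changes of 1.14 to 1.25, adjusted p of 0.0580 to 0.0685, edgeR), whereas the call at day 6 held in 9 of 9 fits that left out a library.

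At day 12, Cdh3 overlapped between genotypes, from 0.872 to 1.84 CPM in HNKO and from 0.547 to 2.10 CPM in WT. At day 21 it had 1.84, 0.927, and 1.08 CPM in HNKO and 0.946, 0.428, 0.624, 0.265, and 0.432 CPM in WT, with 2 of 3 HNKO livers above all WT livers. The log2 fold changes were 0.47 ± 0.30 (adjusted p = 0.345) and 1.23 ± 0.37 (adjusted p = 0.0573), which did not pass with edgeR. With a library left out, the value at day 12 was 0.30 (without WT library 34) to 0.89 (without WT library 14) and passed in 0 of 11 fits. At day 21 Cdh3 passed in 2 of 8 such fits, without WT library 19 (adjusted p = 0.0429) or HNKO library 38 (adjusted p = 0.0438), and its value was lowest without HNKO library 37 (0.89, adjusted p = 0.600, edgeR). It passed at day 21 with DESeq2 (adjusted p = 0.0381) and in edgeR where label series entered the model (adjusted p = 0.0319).

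Cdh17, a cadherin of intestinal epithelium, was close to absent in WT livers. At day 3 the WT libraries held 0, 0, 0, 1, and 5 counts and the HNKO libraries 24, 8, 1, 8, and 34 counts. At day 6 the WT libraries held 0, 0, 1, and 2 counts and the HNKO libraries 4, 8, 85, 3, and 11 counts. At day 12 there were 0 to 5 counts in WT and 3 to 12 in HNKO, and at day 21 there were 0 to 3 in WT and 21, 0, and 2 in HNKO. Most of the HNKO counts thus came from a few livers, with 85 of 246 in library 29.

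As a description, the fitted log2 fold changes of Cdh17 were 3.48 ± 1.03, 4.01 ± 1.21, 2.27 ± 1.08, and 2.63 ± 1.20 (SE) at the 4 days in order. With a library left out they were 2.85 to 5.34 at day 3 (highest without WT library 26), 2.68 to 4.94 at day 6 (lowest without HNKO library 29), and 1.80 to 4.03 at day 12 (highest without WT library 33). The value at day 21 was −0.0790 without HNKO library 37.

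Cdh11, a cadherin of mesenchymal cells, varied widely between livers of the same group. At day 3 it had 1.78, 0.344, 0.532, 0.364, and 2.65 CPM in HNKO and 0.908, 0.910, 0.238, 0.317, and 4.12 CPM in WT, so that the highest liver of the day was a WT liver. At day 6 it had 0.546, 1.88, 1.54, 0.398, and 0.478 CPM in HNKO, all above the 0.390, 0.308, 0.244, and 0.211 CPM of WT. The log2 fold change at day 6 was 1.77 ± 0.80 and did not pass the test (adjusted p = 0.148, edgeR). It was −0.22 ± 0.64 at day 3, and 0.55 ± 0.63 and 0.83 ± 0.80 at the later days. Without WT library 26 the value at day 3 was 0.89, at day 12 the values ran from 0.15 (without HNKO library 32) to 0.99 (without WT library 14), and at day 21 from 0.56 (without WT library 21) to 1.30 (without WT library 20).

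**Figure D3:**
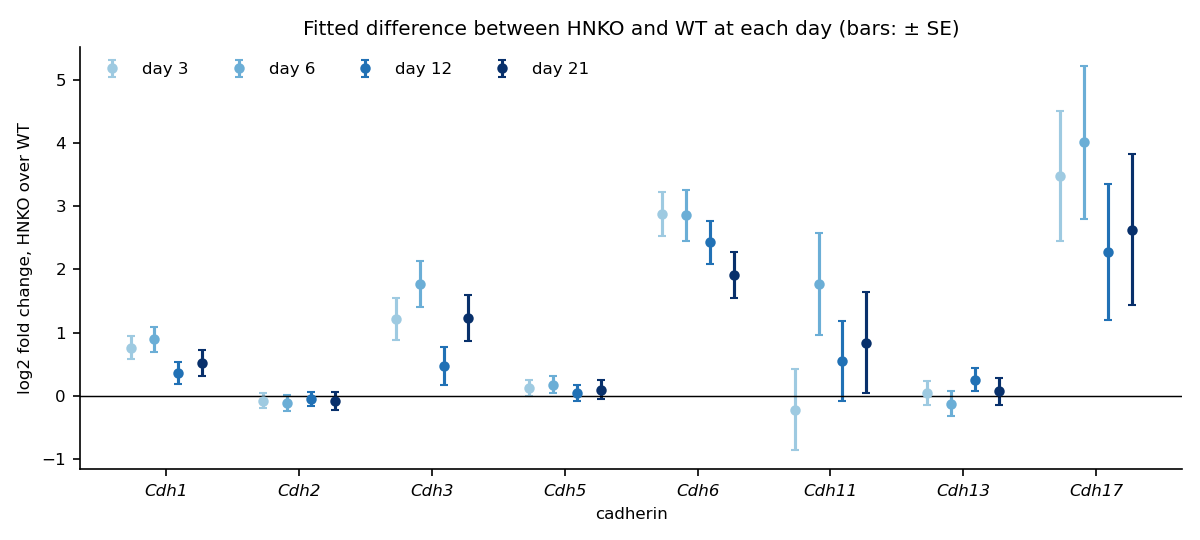
Log2 fold change of HNKO over WT (y axis) for each cadherin (x axis) at each day of PD feeding, with bars of ± SE from the edgeR fit. Cdh2, Cdh5, and Cdh13 stay between −0.13 and 0.25, and the bars of Cdh11 and Cdh17 are the widest.

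Cdh2, Cdh5, and Cdh13 did not pass the test between genotypes at any day. Cdh2, the other cadherin of hepatocyte junctions, ranged from 96.4 to 162 CPM in HNKO and from 99.0 to 176 CPM in WT. Its log2 fold changes lay between −0.11 and −0.05 with SEs of 0.12 to 0.14 (adjusted p of 0.637 to 0.832, edgeR). Cdh5, the cadherin of endothelial junctions, ranged from 42.2 to 71.3 CPM in HNKO and from 39.1 to 70.5 CPM in WT, with log2 fold changes of 0.05 to 0.18 and SEs of 0.13 to 0.15 (adjusted p of 0.464 to 0.857). Cdh13, a receptor for adiponectin on endothelial and muscle cells, ranged from 4.64 to 9.37 CPM in HNKO and from 4.63 to 9.19 CPM in WT, with log2 fold changes of −0.13 to 0.25 and SEs of 0.18 to 0.22 (adjusted p of 0.402 to 0.923). The genotypes overlapped at each day for each of these 3 genes.

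Whether the balance of the E-cadherin and N-cadherin mRNAs differed between genotypes was tested within each liver, as the log2 ratio of Cdh1 to Cdh2 counts, which does not depend on scaling between libraries. At day 3 it was −0.35 ± 0.19 (SD, n = 5) in HNKO and −1.20 ± 0.28 (n = 5) in WT. At day 6 it was −0.57 ± 0.45 (n = 5) and −1.56 ± 0.41 (n = 4), at day 12 it was −0.68 ± 0.44 (n = 6) and −1.08 ± 0.30 (n = 5), and at day 21 it was −0.48 ± 0.42 (n = 3) and −1.05 ± 0.15 (n = 5). The ratio was higher in every HNKO liver than in every WT liver at days 3, 6, and 21, and in 3 of 6 at day 12.

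The differences were 0.85 at day 3 (two-sided exact permutation test, p = 0.00794, adjusted over 4 days 0.0317), 0.99 at day 6 (exact p = 0.0159, adjusted 0.0317), 0.40 at day 12 (exact p = 0.0952, adjusted 0.0952), and 0.58 at day 21 (exact p = 0.0357, adjusted 0.0476). The p-values of days 3, 6, and 21 are the smallest that these group sizes allow. Since the log2 fold changes of Cdh2 were close to 0, the ratio repeats the difference in Cdh1 and is not a separate observation. At day 21 the difference was 0.33 without HNKO library 37, and 0.41 (exact adjusted p = 0.190) with the 2 HNKO libraries that failed quality control.

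**Figure D4:**
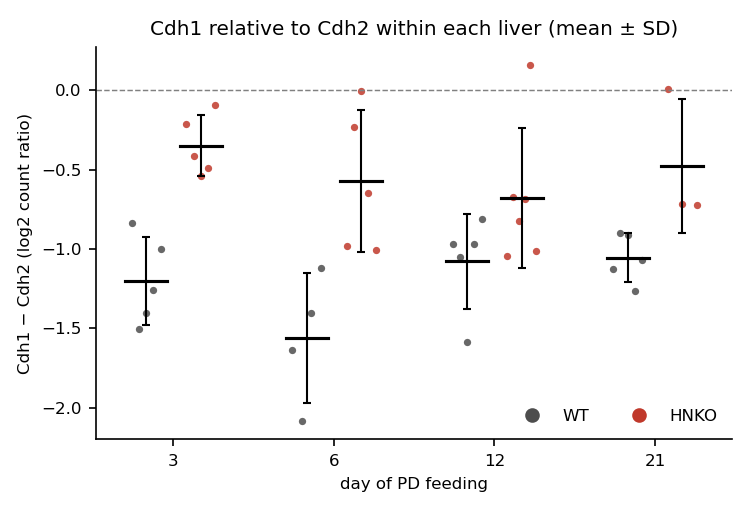
Log2 ratio of Cdh1 to Cdh2 counts in each liver (y axis) against the day of PD feeding, WT in grey and HNKO in red, with the mean and SD of each group. The HNKO livers lie above all WT livers at days 3, 6, and 21, and 1 HNKO liver of day 12 stands at 0.16.

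Across days of PD feeding, none of the 8 genes passed the test of a day effect in WT or in HNKO with edgeR, nor did any of the 7 with an adjusted p from DESeq2 (it gave none for Cdh17), whereas 5.84% of all tested genes did so in WT and 7.90% in HNKO with edgeR. At an unadjusted p under 0.05, 3 of the 8 genes passed in WT and 0 in HNKO, against 21.2% and 22.9% of all tested genes. The 3 were Cdh1 (edgeR adjusted p = 0.109), Cdh3 (adjusted p = 0.184), and Cdh11 (adjusted p = 0.168). An interaction of genotype and day was called for 0 of 20297 genes with edgeR (966 at an unadjusted p under 0.05) and for 18 with DESeq2, and none of the 6 cadherins with an adjusted p from DESeq2 was among them. That Cdh1 and Cdh3 passed the test at days 3 and 6 and not at days 12 and 21 is therefore not shown to be a difference between days.

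Of the other 15 genes with a Cdh symbol, 5 passed the filter on low counts (Cdh4, Cdh18, Cdh19, Cdh23, and Cdh24), of which Cdh19 did not pass in the WT libraries alone. Among the 5, 1 was called at 1 day, day 6, when 8.42% of all tested genes were called higher. Cdh23, a cadherin of hair cell tip links, had a log2 fold change of 1.29 ± 0.29 at day 6 (adjusted p = 0.00314, edgeR). The 10 genes that were not tested, among them Cdh16 with 117 counts and Cdh15 with 58, had at most 117 counts over the 38 libraries.

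Among the catenins that bind classical cadherins, the abundant ones were not called. Ctnnb1 (beta-catenin) had log2 fold changes of 0.04, 0.18, 0.11, and 0.20 at days 3, 6, 12, and 21, and Ctnna1 (alpha-catenin) of 0.09, 0.04, −0.04, and −0.03, and neither passed the test at any day. Of 8 catenin genes tested, 2, 2, 1, and 2 were called higher at the 4 days, and none lower. Among all tested genes, 2.95%, 8.42%, 4.56%, and 2.21% were called higher. Ctnnd2 (delta-catenin), a rare transcript with means of 0.0821 FPKM in HNKO and 0.0237 in WT, had log2 fold changes of 2.28 ± 0.42, 2.38 ± 0.49, 1.01 ± 0.40, and 1.69 ± 0.45. It did not pass the filter on low counts in the WT libraries alone, so these values are a description. Without it, 1 of 7 catenin genes was called at each day. Ctnna3, which is among the 7 and was not called, did not pass in the WT libraries alone either. Ctnnal1, a relative of alpha-catenin, was called at each day, with 0.40 ± 0.11, 0.52 ± 0.12, 0.46 ± 0.11, and 0.46 ± 0.13.

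Of 10 genes that link junctions to actin, 2 were called higher at day 6, 1 at day 12, and 0 at days 3 and 21. Of all tested genes, 2.95%, 8.42%, 4.56%, and 2.21% were called higher at the 4 days in order, and 1.71%, 4.37%, 3.27%, and 0.916% lower. The lists of this paragraph were not tested against these shares. Actn1, which crosslinks actin, had log2 fold changes of 0.43 ± 0.10 at day 6 and 0.36 ± 0.09 at day 12 and was called at both. Of 8 proteases that cut cadherins or their precursors, none was called at day 3. At day 6 there were 2 called higher and 2 lower, and at days 12 and 21 there was 1 in each direction. Adam15, a membrane sheddase, was higher by 1.04 ± 0.23, 0.74 ± 0.20, and 0.85 ± 0.23 at days 6, 12, and 21 on the log2 scale. Furin, which removes the propeptide of cadherins, fell by 0.33 at day 6, 0.38 at day 12, and 0.73 at day 21 on the log2 scale (adjusted p = 0.0484, 0.0229, and 0.00210, edgeR). Of 5 repressors of Cdh1 tested (Snai1, Snai2, Zeb1, Zeb2, and Twist1), 1 was called, Zeb2, with 0.46 ± 0.14 at day 6 (adjusted p = 0.0305). Twist1 did not pass the filter on low counts in the WT libraries alone.

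Whole liver holds several cell types, and in such samples more cells of a type cannot be told apart from more RNA per cell. Markers of other cell types moved with the genotype beside Cdh1, Cdh3, Cdh6, and Cdh17. Of 7 cholangiocyte markers tested, 5, 5, 4, and 3 were called higher in HNKO at the 4 days. These counts leave out Cftr, which did not pass the filter on low counts in the WT libraries alone. Among all tested genes, 2.95%, 8.42%, 4.56%, and 2.21% were called higher at the 4 days in order. The mean log2 CPM of the cholangiocyte list, with Cftr, was 1.80 to 3.39 in HNKO livers and 0.52 to 1.40 in WT livers, without overlap. As Cftr is part of this mean, the lack of overlap is a description, and the mean without Cftr was not computed. The correlations given below also use the list with Cftr. Of 10 stellate cell and fibroblast markers, 4, 6, 3, and 4 were called higher at the 4 days, and their mean log2 CPM was 3.89 to 5.99 in HNKO and 3.73 to 4.91 in WT.

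Few endothelial markers were called. Beside the counts that follow, 2.95%, 8.42%, 4.56%, and 2.21% of all tested genes were called higher at the 4 days in order. Called lower were 1.71%, 4.37%, 3.27%, and 0.916%, and the lists were not tested against these shares. Of 10, 0 were called higher at days 3, 6, and 21 and 1 at day 12, 2 were called lower at day 6 and 1 at day 12, and the mean log2 CPM was 5.55 to 5.81 in HNKO and 5.44 to 5.76 in WT. Of 7 macrophage markers, 2 were called higher at day 6 and 0 at the other days. Of 9 hepatocyte markers, 2 were called lower at day 6 and 0 at the other days, and of 5 mesothelial markers, 1 was called higher at day 12, Krt19, which is also a cholangiocyte marker. The part of these cell types in the differences of the cadherins was not tested.

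The variation of the cadherins between livers of the same group was compared with that of these marker lists over the 38 libraries. It was taken as deviations from the group means of log2 CPM. Of 48 pairs of a cadherin and a list, 15 passed at an adjusted p under 0.05 (100000 permutations within groups, adjusted over the 48 pairs). Of these 15, 2 are pairs of Cdh17, which could be tested only because of its counts in HNKO libraries. The values of a library share its depth and scaling. Cdh11 and the mesothelial list had the highest correlation, with Pearson's r = 0.78 (adjusted permutation p = 0.00048) and Spearman's rho = 0.79 (adjusted permutation p = 0.00048). It was 0.74 without the 2 libraries farthest from the median of the list, 0.74 in the 19 WT livers, 0.82 in the 19 HNKO livers, and 0.84 within label series.

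Cdh5 varied with the macrophage list, with r = 0.75 (adjusted permutation p = 0.00072) and rho = 0.58 (adjusted permutation p = 0.0072), at 0.65 without the 2 farthest libraries, 0.75 in WT, 0.75 in HNKO, and 0.71 within label series. With the endothelial list, to which it belongs by cell type, r was 0.42 (adjusted permutation p = 0.0573) and rho 0.40 (adjusted permutation p = 0.0692), and r was 0.30 without the 2 farthest libraries. Within label series the pair passed (r = 0.61, adjusted permutation p = 0.0261). Endothelial markers spanned a narrow range, as given above.

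Cdh1 varied with the cholangiocyte list (r = 0.61, adjusted permutation p = 0.00336; rho = 0.52, adjusted permutation p = 0.0151) and Cdh3 with the stellate cell and fibroblast list (r = 0.64, adjusted permutation p = 0.00112; rho = 0.66, adjusted permutation p = 0.00096). Without the 2 farthest libraries r was 0.52 and 0.69, and within label series it was 0.74 and 0.68. In HNKO livers r was 0.76 for Cdh1 and 0.79 for Cdh3, and in WT livers 0.33 and 0.50. Cdh17 varied inversely with the hepatocyte list (r = −0.70, adjusted permutation p = 0.00504; rho = −0.55, adjusted permutation p = 0.0151), at −0.58 without the 2 farthest libraries, −0.67 within label series, −0.88 in HNKO, and −0.10 in WT, where it has almost no counts. This pair thus rests on the HNKO livers, through which Cdh17 passed the filter, with 85 of 246 HNKO counts in library 29.

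Each of these 3 genes also varied with other lists. Cdh1 passed with the stellate cell and fibroblast list (r = 0.55, adjusted permutation p = 0.00521; 0.57 without the 2 farthest libraries) and inversely with the hepatocyte list (r = −0.49, adjusted permutation p = 0.0209), the latter not without the 2 farthest libraries (r = −0.42, adjusted permutation p = 0.0906). Cdh3 passed with the mesothelial list (r = 0.54, adjusted permutation p = 0.00666) and the cholangiocyte list (r = 0.45, adjusted permutation p = 0.0190), and Cdh17 with the stellate cell and fibroblast list (r = 0.62, adjusted permutation p = 0.0179). For this pair of Cdh17, r was 0.71 in HNKO livers and 0.20 in WT livers, so it too rests on the HNKO livers. The other pairs that passed were Cdh11 with the stellate cell and fibroblast list (r = 0.57) and the cholangiocyte list (r = 0.49; 0.58 in WT and 0.51 in HNKO, where neither passed), Cdh2 with the hepatocyte list (r = 0.35; 0.63 in WT and 0.20 in HNKO), and Cdh13 with the macrophage list (r = 0.40). The last did not pass without the 2 farthest libraries (r = 0.32, adjusted permutation p = 0.166) or within label series (r = 0.29, adjusted permutation p = 0.229).

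Cdh6 passed with 1 list, that of stellate cells and fibroblasts, by r but not by rho (r = 0.49, adjusted permutation p = 0.0179; rho = 0.40, adjusted permutation p = 0.0640), and not without the 2 farthest libraries (r = 0.37, adjusted permutation p = 0.0906), whereas it passed within label series (r = 0.64, adjusted permutation p = 0.0201). With the cholangiocyte list r was 0.42 (adjusted permutation p = 0.0556) and rho 0.36 (adjusted permutation p = 0.103), and r was 0.33 without the 2 farthest libraries and 0.55 within label series (adjusted permutation p = 0.0569). Within the 19 HNKO livers r was 0.82 with the stellate list and 0.83 with the cholangiocyte list (adjusted permutation p = 0.00211 for both), and within the 19 WT livers −0.11 and −0.36 (adjusted permutation p = 0.907 and 0.720). In HNKO livers Cdh6 also varied inversely with the hepatocyte list (r = −0.69, adjusted permutation p = 0.00357). The HNKO livers with more Cdh6 thus had more of the stellate and cholangiocyte markers and less of the hepatocyte markers, but the difference between genotypes was not tested. In WT libraries Cdh6 had only 7 to 58 counts, which limits the WT correlations. The pattern in HNKO livers is not particular to Cdh6. With the stellate, cholangiocyte, and hepatocyte lists, r was 0.76, 0.76, and −0.71 for Cdh1 and 0.79, 0.69, and −0.61 for Cdh3.

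**Figure D5:**
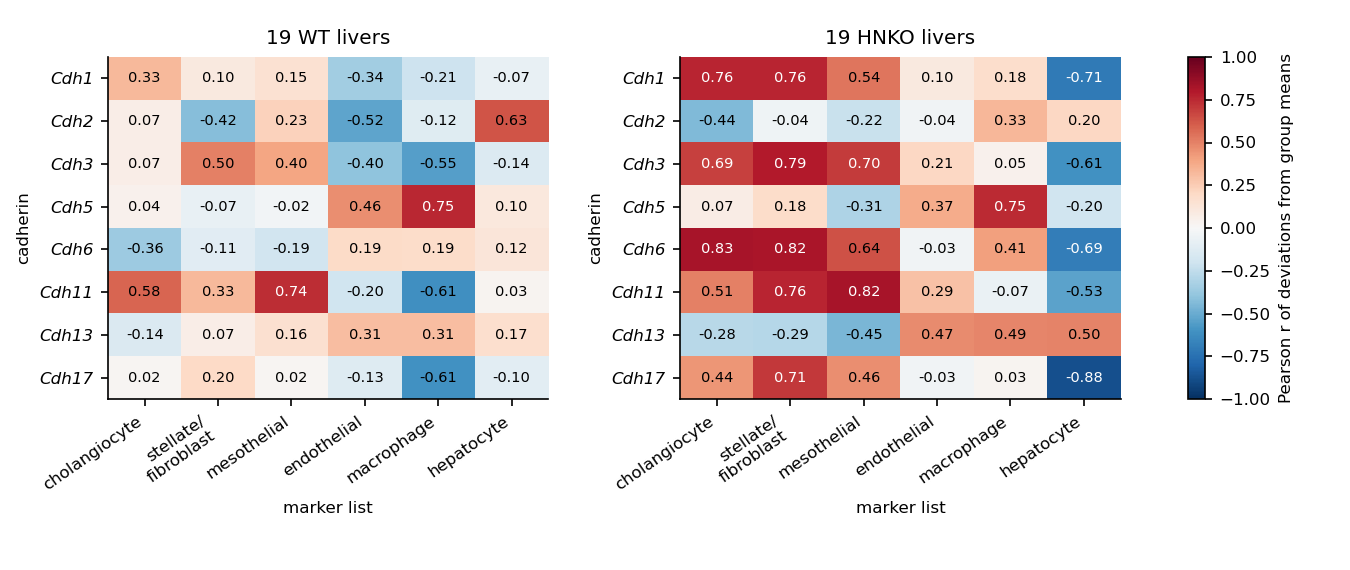
Pearson's r between each cadherin (rows) and the mean log2 CPM of each marker list (columns), from deviations from group means in 19 WT livers (left) and 19 HNKO livers (right), on a colour scale from −1 to 1. Cdh6 has 0.83 with the cholangiocyte list in HNKO and −0.36 in WT, where a library holds only 7 to 58 counts of it, and Cdh5 has 0.75 with the macrophage list in both.

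Among the 8 cadherins themselves, r over the 28 pairs ranged from −0.53 (Cdh13 and Cdh17) to 0.54 (Cdh3 and Cdh11), with a median of 0.22. The neighbours Cdh1 and Cdh3 had r = 0.48, Cdh1 and Cdh6 had 0.42, and Cdh1 and Cdh2 had 0.10. As a description, the tested genes whose deviations were most like those of Cdh6 over the 38 libraries were Nol4l (r = 0.68), 2700029L08Rik (0.67), Mamld1 (0.67), Tet2 (0.65), and Ano6 (0.65). Other cadherins had closer neighbours. For Cdh1 they were Btbd8 (0.83) and Ephb2 (0.75), for Cdh2 Sh3d19 (0.81) and C130074G19Rik (0.81), for Cdh3 Rab11fip5 (0.74) and Tgfb3 (0.74), for Cdh5 C1qa (0.88) and Treml4 (0.86), for Cdh11 Cdon (0.86) and Pkhd1l1 (0.85), for Cdh13 Gm15920 (0.75) and Fam222b (0.75), and for Cdh17 Hsh2d (0.83) and Abca5 (0.81). C1qa is a member of the macrophage list.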

How the data were processed

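Gene expression was measured by RNA sequencing of 40 livers, 1 library per mouse. Per the labels and the study's methods, the authors removed rRNA and sequenced both ends of fragments with 51-bp reads. They used STAR 2.7.2b for alignment to GRCm38 and counted fragments with both ends aligned on GENCODE release M22 with featureCounts 1.6.4, and the use of strand in counting is not given in the sources used here. The deposited table holds raw counts per gene without normalization. It has 0 columns of no mapped sample. Symbols, positions, and exon lengths for FPKM came from GENCODE release M21 of the same build.

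Libraries 17 and 18 (HNKO, day 21), described as failing quality control, were left out. Low counts were filtered with edgeR's function (count 10, total count 15, proportion 0.7). This left 20297 genes, which were scaled by TMM. A mean per genotype and day was fitted, and contrasts were tested with edgeR 4.0.16 (quasi-likelihood, legacy dispersion, R 4.3.3), adjusted by Benjamini-Hochberg over all tested genes. Log2 CPM used a prior count of 2. Depth, the spread between mice, and 3 to 6 mice per group set the precision. The Cdh1 to Cdh2 ratio was compared by exact permutation tests (SciPy 1.17.1), and correlations by permutations within groups. The fits were tested on simulated data. Alternatives were RLE size factors, DESeq2 1.42.0, no filter, a stricter filter (10 counts in each library), inclusion of the failed libraries, a fit per day, robust estimation, the dispersion method of edgeR 4, label series in the model, a prior count of 0.5, and leaving out each library.

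The 8 genes, the partner genes, and the marker lists were chosen with earlier results of these data known. The genes named are the 8, other cadherins and partner genes called at 2 or more days, the 5 genes most like Cdh6 and 2 most like each other cadherin by r, and marker genes where needed. Ctnnb1, Ctnna1, Zeb2, the other repressors of Cdh1, and the cadherins outside the 8 that are named are outside this rule and were chosen after their values were seen.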

Additional observations from a re-analysis of the deposited data

Results flagged for a closer look

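The 8 log2 CPM values and the Cdh1 to Cdh2 ratio were each examined in the groups of 4 to 6 livers, and in 3 of these 63 cases a liver stood apart from the others of its group by Dixon's criterion, which flags about 1 case in 20 by chance. Cdh17 was at 1.04 log2 CPM in HNKO library 29 at day 6, and the other 4 HNKO livers were between −2.04 and −1.39. Cdh3 was at 1.61 log2 CPM in HNKO library 2 at day 3, and the others were between 0.08 and 0.50. The log2 ratio of Cdh1 to Cdh2 was 0.16 in HNKO library 35 at day 12, and the others were between −1.04 and −0.67.

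The 2 HNKO libraries of day 21 that failed quality control entered only the alternatives with all 40 libraries, and their totals were 12287423 and 15935527 counts. On the scale of all 40 libraries, Cdh6 was at 0.69 log2 CPM in library 17 and at 1.95 in library 18, above all WT livers of the day, which reached 0.46. In library 18, Cdh1 (6.46), Cdh3 (0.69), Cdh5 (5.87), Cdh13 (3.21), and Cdh17 (−0.96) also lay above all WT livers of the day, while Cdh2 (6.73) and Cdh11 (−2.96) lay below them. In library 17, Cdh11 (2.51, against at most −0.10 in WT) and Cdh2 (7.09, against at most 7.08) did, while Cdh3 (−2.73) and Cdh13 (1.86) lay below all WT livers.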

How the results depend on the processing

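Of the 6 cadherins other than Cdh6 and Cdh17, 2 were called at days 3 and 6 and 0 at days 12 and 21. The count of day 3 was 1 with all 40 libraries, where 1.05% of all genes were called higher, 1 with only the 2 groups of the day (1.54%), and 1 with at least 10 counts in every library (3.33%), against 2.95% in the reported fit. That of day 6 was 1 with at least 10 counts in every library (9.61%), a filter that keeps 4 of the 6 genes, and that of day 21 was 1 with DESeq2 (3.31%) and 1 with label series in the model (2.64%). Leaving out each library gave 0 to 2 at day 3 and 0 to 1 at day 21. The counts of day effects and of interactions stayed at 0 under every alternative run. Of the 15 correlations past the threshold, 1 passed in the 19 WT livers alone, 13 in the 19 HNKO livers alone, 14 within label series, and 12 without the 2 farthest libraries, where 1, 17, 18, and 12 of the 48 pairs passed in all.

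The difference of the Cdh1 to Cdh2 ratio at day 21 was 0.41 with all 40 libraries, past the threshold no longer, and 0.33 to 0.70 with each library left out, where no p under 0.05 can be reached. At days 3, 6, and 12 it was 0.77 to 0.94, 0.81 to 1.13, and 0.23 to 0.47. The sign of a log2 fold change turned only for values that no test called. With label series in the model, Cdh13 at day 3 was −0.0257 and Cdh2 at day 21 was 0.0665. With a library left out, Cdh11 at day 3 ranged from −0.78 to 0.89, Cdh13 from −0.0638 to 0.172 at day 3, −0.285 to 0.0159 at day 6, and −0.0576 to 0.186 at day 21, Cdh17 at day 21 from −0.0790 to 3.33, Cdh2 from −0.153 to 0.0141 at day 3 and −0.151 to 0.0470 at day 12, and Cdh5 at day 12 from −0.0492 to 0.160. The causes were not tested. At day 21, the HNKO group has libraries of label series 2 alone. No paired analysis was possible because each library number belongs to 1 liver and the groups share none. Cdh6, Cdh3, Cdh11, and Cdh17 rest on low counts, which limits the precision of their fold changes.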
